A study of Mus musculus with 12 samples.

Results

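Dopamine is made, packaged, recaptured and broken down by a small set of proteins, and 8 of their genes were examined here in the adult nucleus accumbens after prenatal immune challenge. The genes were Th, Ddc, Slc6a3, Slc18a2, Maoa, Maob, Aldh1a1 and Nr4a2. They were chosen by function. Each was taken from the array row, called a probe here, that carried its symbol and no other, and each of the 8 had 1 such probe among 21218 probes for 18820 genes. The 6 exposed arrays came from 12-week-old C57BL/6N offspring of dams given poly(I:C), a double-stranded RNA analogue that triggers an antiviral response, at 5 mg/kg intravenously on gestation day 17. The 6 control arrays came from offspring of the same strain and age whose dams received saline by the same route on the same day. All offspring had gone through behavioural tests before dissection, and core and shell of the accumbens were dissected as 1 piece. Litter and sex are not given in the labels.

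In dopamine neurons tyrosine hydroxylase (Th) makes L-DOPA from tyrosine, and aromatic L-amino acid decarboxylase (Ddc) turns it into dopamine. The vesicular monoamine transporter (Slc18a2) loads dopamine into vesicles, and the dopamine transporter (Slc6a3) takes it back up after release. Monoamine oxidases A and B (Maoa, Maob) and aldehyde dehydrogenase (Aldh1a1) break it down, and the nuclear receptor Nr4a2, also called Nurr1, sustains this programme in midbrain neurons. The cell bodies of the dopamine neurons that supply the accumbens lie in the midbrain, so that most of their mRNA is outside the dissected tissue. Maoa, Maob, Aldh1a1 and Nr4a2 are also expressed by other cells, Maob in glia and Nr4a2 in deep cortical layers and the claustrum.

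In the RefSeq annotation of GRCm38.p6, Th spans chr7:142892779-142899995, Ddc chr11:11814101-11898144 and Nr4a2 chr2:57106830-57124003, each on the minus strand. On the plus strand lie Slc6a3 at chr13:73536128-73578672, Slc18a2 at chr19:59260878-59296012, Aldh1a1 at chr19:20492583-20643463 and Maoa at chrX:16619698-16687812. Maob neighbours Maoa at chrX:16709281-16817366. Promoters were searched because Nr4a2, which binds the NGFI-B response element AAAGGTCA, varied widely between the arrays, and because Th is known to respond to cAMP through the element TGACGTCA. The 250 bases before each annotated start were taken from RefSeq for 7 of the 8 genes, with 9 promoters in all. On either strand, AAAGGTCA was present in 1.34% and TGACGTCA in 1.55% of all 32851 promoter windows of this length. Only these 2 windows among the 9 held a match, which is given in capitals. The cAMP element lay in Th (45 to 38 bases before the start) and reads the same on both strands. The NGFI-B element lay in Ddc (73 to 66 bases before the start, reverse orientation). The motifs do not overlap. The windows are chr7:142899996-142900245 for Th and chr11:11898145-11898394 for Ddc, both read 5′ to 3′ on the minus strand of GRCm38.p6. A match describes these letters and does not show binding.
Th: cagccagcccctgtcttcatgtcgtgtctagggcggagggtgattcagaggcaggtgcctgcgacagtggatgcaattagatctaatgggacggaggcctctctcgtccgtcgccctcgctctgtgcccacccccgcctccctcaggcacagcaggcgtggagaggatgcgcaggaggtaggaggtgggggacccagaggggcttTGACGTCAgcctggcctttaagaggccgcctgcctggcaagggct
Ddc: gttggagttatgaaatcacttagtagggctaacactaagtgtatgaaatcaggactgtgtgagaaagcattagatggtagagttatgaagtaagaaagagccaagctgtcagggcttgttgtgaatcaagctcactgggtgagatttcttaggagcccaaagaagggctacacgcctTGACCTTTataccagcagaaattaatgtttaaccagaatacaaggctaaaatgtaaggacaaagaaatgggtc

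The arrays gave log2 values with medians between 4.78 and 4.85, and pairwise correlations ran from 0.991 to 0.997 across all rows. Markers of medium spiny neurons, the main accumbens cells, were well measured, with 10 of 10 genes at or above the median probe level of 5.47 and Drd1 at 8.62 ± 0.21 in poly(I:C) and 8.45 ± 0.26 in control offspring (SD, n = 6 arrays each, as in all such values). Drd2 was at 8.69 ± 0.19 in poly(I:C) and 8.73 ± 0.23 in control offspring. Markers of tissue next to the accumbens varied between the arrays. Ttr, the transthyretin gene of the choroid plexus, stood at 4.82 to 6.80 in the poly(I:C) arrays, against 8.68, 10.48 and 10.88 in controls 2, 4 and 6 and 6.05 to 6.76 in the other controls. The mean of 8 choroid plexus genes including Ttr was 5.34, 6.37 and 7.15 in controls 2, 4 and 6. It was 4.79 to 4.88 in the other controls and 4.61 to 4.86 in poly(I:C) arrays, so control 2 stood closer to these than to controls 4 and 6. Slc17a7, the vesicular glutamate transporter gene of cortical neurons, ranged from 7.68 to 9.50 in poly(I:C) and from 5.23 to 9.41 in control arrays. In such bulk tissue, fewer cells of a type and less RNA per cell cannot be told apart.

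None of the 8 genes passed the test for a difference between poly(I:C) and control offspring (limma over all probes, Benjamini-Hochberg adjusted threshold 0.05), where 13 of 21218 probes passed (0.0613%). Without controls 2, 4 and 6, which leaves fewer control arrays, 0 probes passed. The count was also 0 where control 4, 5 or 6 alone was left out. With all 12 arrays, 1 of the 8 had an unadjusted limma p under 0.05, Maob, against 14.4% of all probes. The groups overlapped for all 8, while they did not overlap for 1.13% of all probes. In value, 5 of the 8 were lower in poly(I:C) offspring, against 49.1% of all probes, and the median difference was -0.08 against 0.002 over all probes. These shares are near the background. Of the 8 intervals, those of Slc6a3 and Maoa were the narrowest and that of Nr4a2 the widest.

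**Figure D1:**
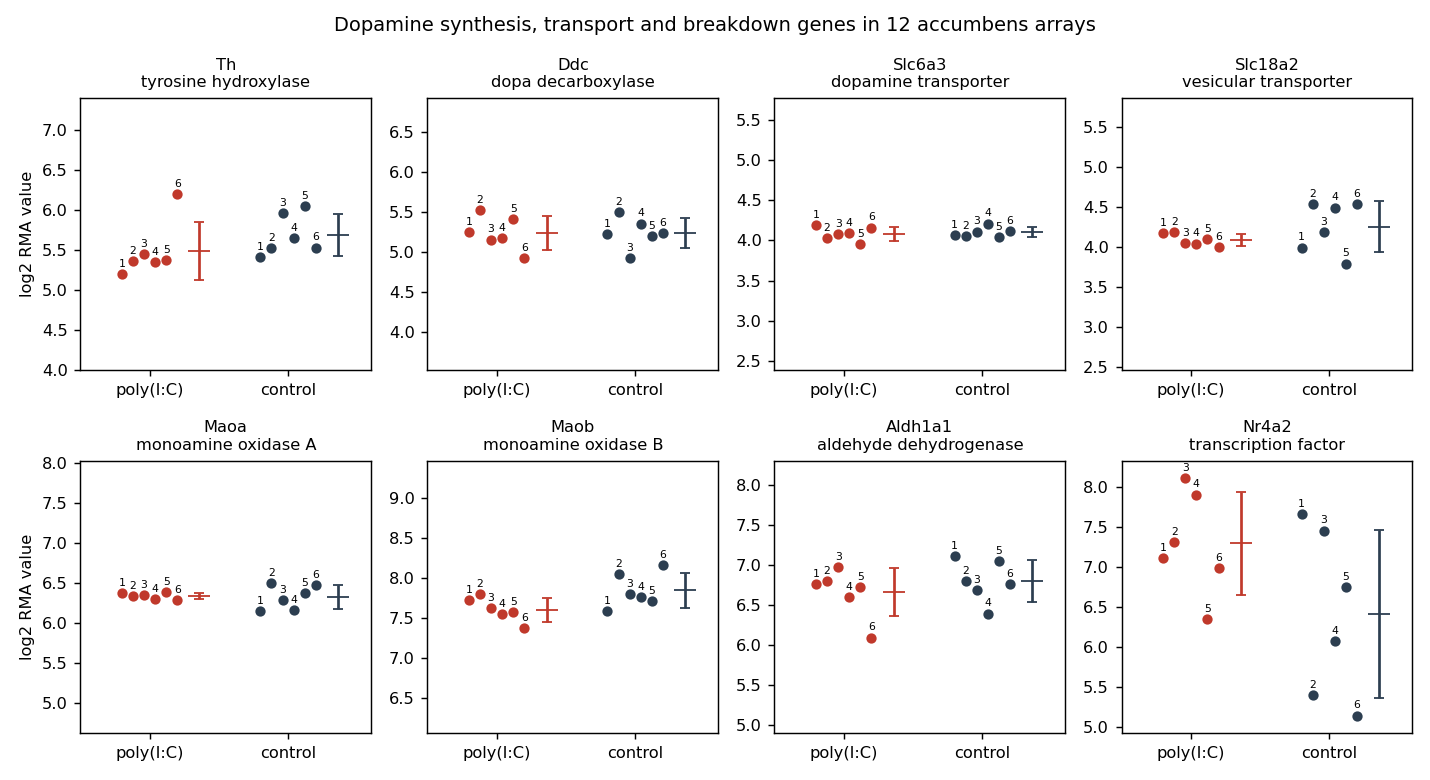
Log2 values of the 8 genes in each array, numbered by replicate, in poly(I:C) (left, red) and control offspring (right, dark), with mean ± SD beside the points (n = 6 each). All panels span the same log2 width. The groups overlap for all 8 genes, and Nr4a2 spreads most, from 6.35 to 8.11 in poly(I:C) and from 5.14 to 7.66 in control arrays.

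The genes for dopamine synthesis lay near the middle of the array. Th, the rate-limiting enzyme, ran from 5.20 over a median of 5.36 to 6.20 in poly(I:C) arrays, against 5.41, 5.59 and 6.05 in controls. Of the exposed arrays 4 lay below every control, but poly(I:C) 6 at 6.20 lay above every control. The means were 5.49 ± 0.36 in poly(I:C) and 5.69 ± 0.26 in control offspring, a difference of -0.20 (log2, 95% interval -0.53 to 0.13, limma adjusted p = 0.589). The Th difference was smaller, -0.08, in a fit that took the array means of cortical, choroid plexus and septal markers as covariates (limma adjusted p = 0.873), and -0.13 without control 5 (adjusted p = 0.753). These covariates themselves differed in mean between the groups, so that fit cannot separate exposure from tissue content. The Th difference was larger without poly(I:C) 6, at -0.34 (adjusted p = 0.144), without controls 2, 4 and 6, at -0.32 (adjusted p = 0.785), and with array weights, at -0.31 (adjusted p = 0.238). Poly(I:C) 6 was also the array with the highest medium spiny neuron mean, 9.47 against 9.06 to 9.29 in the other exposed arrays and 8.81 to 9.38 in controls. Its mean of 7 microglial genes was 6.50, against 6.34 to 6.44 in the other exposed arrays and 6.37 to 6.54 in controls. Over the 12 arrays, deviations of Th from its group means correlated with those of the medium spiny neuron mean (r = 0.77) and of the microglial mean (0.82). With 10 genes of monoamine and aldehyde metabolism, given below, r was -0.81. The part of these markers in the Th value was not tested.

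Ddc, the decarboxylase gene, had the smallest difference of the 8 genes. Its values ran from 4.92 over a median of 5.20 to 5.52 in poly(I:C) arrays, against 4.92, 5.22 and 5.49 in controls. The 2 ranges nearly coincided. The log2 difference was 0.00 (95% interval -0.22 to 0.22, limma adjusted p = 0.996), which corresponds to a range from -13.9% to 16.4% on the linear scale. Against the median of all rows of its array, Th stood 0.38 to 1.42 and Ddc 0.13 to 0.74 higher on the log2 scale. Against the median of probes with 1 symbol Ddc was lower, by a mean log2 value of -0.23, and Th was higher by 0.12.

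The transporter genes read low on the arrays. Slc6a3 stood -0.86 to -0.62 and Slc18a2 -1.03 to -0.25 from the array median on the log2 scale. Between 23.7% and 29.1% of tested probes were lower than Slc6a3 on the same array, and between 20.4% and 35.7% were lower than Slc18a2. At such levels array values are compressed, so that a change could be understated.

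**Figure D2:**
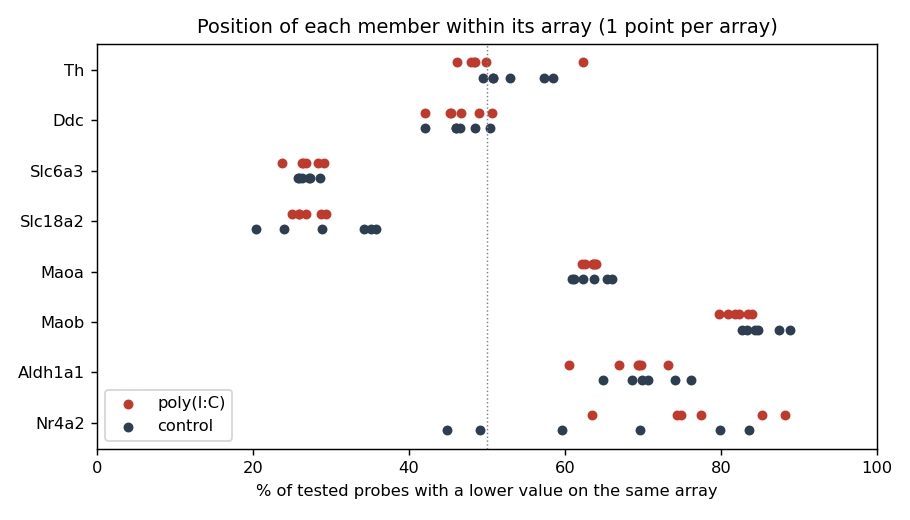
Share of the 21218 tested probes with a lower value on the same array (horizontal axis, %), 1 point per array, for poly(I:C) (red, upper row of each gene) and control offspring (dark, lower row). The dotted line marks 50%. Slc6a3 and Slc18a2 lie between 20.4% and 35.7% on all 12 arrays, while Maob lies between 79.7% and 88.9%. Probes differ in affinity, so the positions of different genes do not rank their mRNA amounts.

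Slc6a3, the dopamine transporter gene, ran from 3.95 over 4.08 to 4.19 in poly(I:C) arrays, against 4.04, 4.09 and 4.21 in controls. Its arrays were tightly grouped, and the log2 difference was -0.02 (95% interval -0.11 to 0.08, limma adjusted p = 0.907). Slc18a2, the vesicular transporter gene, was 4.00 to 4.18 in the 6 poly(I:C) arrays, a span of 0.18. In controls it was 3.99, 4.53, 4.18, 4.49, 3.79 and 4.53 in replicates 1 to 6. Every exposed array lay inside the control range and below the control median of 4.34.

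The 3 controls with high Slc18a2 were the 3 with high Ttr, controls 2, 4 and 6. The group means were 4.09 ± 0.07 in poly(I:C) and 4.25 ± 0.32 in control offspring, a difference of -0.16 (log2, 95% interval -0.41 to 0.09, limma adjusted p = 0.554). Without these 3 controls the difference was 0.11 (limma adjusted p = 0.812), and it was 0.00 (adjusted p = 0.996) in the fit with the 3 tissue covariates. As these controls were the highest for Slc18a2, leaving them out had to lower the control mean. With 1 array left out the difference of Slc18a2 ran from -0.25 without control 5 to -0.10 without control 6. The mean of 7 genes of ependyma, the cells that line the ventricles, was 4.41 to 4.54 in poly(I:C) arrays, against 4.88, 4.79 and 5.00 in controls 2, 4 and 6 and 4.44 to 4.53 in the other controls. The part of neighbouring tissue in the Slc18a2 value was not tested.

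**Figure D3:**
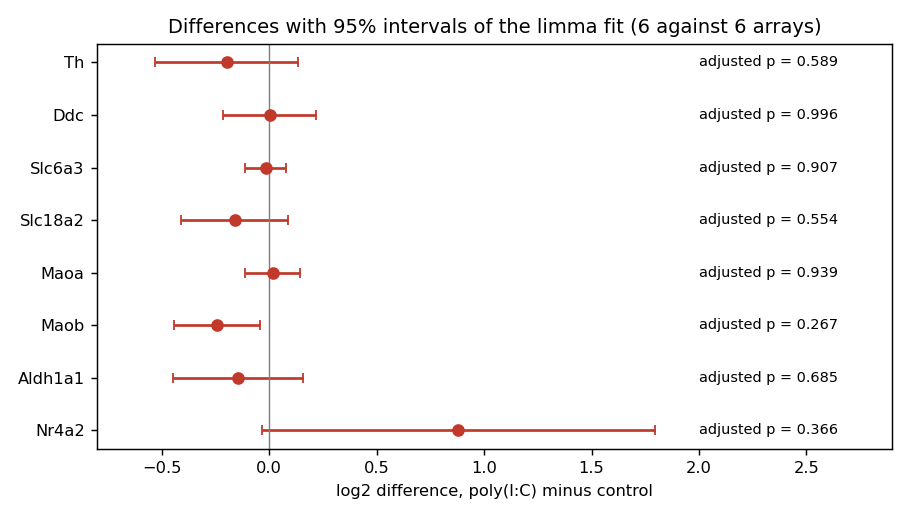
Log2 difference, poly(I:C) minus control, of each gene with its 95% interval from the limma fit (6 against 6 arrays), and its Benjamini-Hochberg adjusted p over all probes. Of the 8 intervals, Maob's, from -0.44 to -0.04, leaves out 0, but its adjusted p is 0.267. Nr4a2 has the widest interval, from -0.03 to 1.79.

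Among the breakdown enzymes Maob had the lowest unadjusted p of the 8 genes. Maob, the monoamine oxidase that is prominent in astrocytes, was 7.72, 7.80, 7.62, 7.55, 7.57 and 7.37 in poly(I:C) replicates 1 to 6. In controls 1 to 6 it was 7.59, 8.05, 7.80, 7.76, 7.71 and 8.16. Of the exposed arrays 3 lay below every control, and 5 lay below the control median of 7.78. The means were 7.60 ± 0.15 in poly(I:C) and 7.85 ± 0.21 in control offspring, a difference of -0.24 (log2, 95% interval -0.44 to -0.04, limma adjusted p = 0.267), or -15.5% on the linear scale.

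Glial markers were compared beside Maob. Over 10 astrocyte genes the array means were 8.10 to 8.43 in poly(I:C) and 8.07 to 8.46 in control offspring, 0 passed the test or had an unadjusted p under 0.05, and the median difference was -0.02. Over 9 genes of mature oligodendrocytes, the myelin-forming cells, the means were 7.87 to 8.05 in poly(I:C) arrays and 8.06 to 8.58 in controls. Of these 9, all were lower in value and all 9 had an unadjusted limma p under 0.05, against 14.4% of all probes. For 3 of the 9, Mobp among them, the groups did not overlap, against 1.13% of all probes. After adjustment 1 fell, Mobp (limma adjusted p = 0.0411). Without controls 2, 4 and 6, which leaves fewer control arrays, 0 passed. Controls 2 and 6, the highest for Maob, were also highest for the astrocyte mean (8.46 each) and the oligodendrocyte mean (8.51 and 8.58). Without controls 2, 4 and 6 the Maob difference was -0.10 (limma adjusted p = 0.849), and in the fit with the 3 tissue covariates it was -0.17 (adjusted p = 0.463). As controls 2 and 6 were the highest for Maob, leaving out this set, picked after seeing the data, had to shrink the difference. The part of glial content in the Maob value was not tested.

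Maoa, the adjacent X-linked oxidase gene, ran from 6.28 over 6.34 to 6.38 in poly(I:C) arrays, against 6.15, 6.32 and 6.50 in controls. The exposed arrays lay within a span of 0.10 and inside the control range, which was 0.35 wide. The log2 difference was 0.02 (95% interval -0.11 to 0.14, limma adjusted p = 0.939). Controls 2 and 6 were again the highest, at 6.50 and 6.47. Aldh1a1, which oxidises the aldehyde formed by the monoamine oxidases, ran from 6.09 over 6.74 to 6.97 in poly(I:C) arrays, against 6.39, 6.78 and 7.11 in controls.

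Apart from poly(I:C) 6 at 6.09, each exposed Aldh1a1 value lay within the control range. The log2 difference of Aldh1a1 was -0.14 (95% interval -0.45 to 0.16, limma adjusted p = 0.685), and without poly(I:C) 6 it was -0.03 (adjusted p = 0.929). It ran from -0.22 without control 4 to -0.03 with 1 array left out, and was -0.29 without controls 2, 4 and 6 (limma adjusted p = 0.762). In the fit with the 3 tissue covariates it was -0.39 (limma adjusted p = 0.378). Poly(I:C) 6 had the lowest value of the 6 exposed arrays for Ddc (4.92), Maob, Maoa, Slc18a2 and Aldh1a1, and the highest for Th. The mean of 10 septal, pallidal and diencephalic genes was lowest in that array, 5.60 against 5.98 to 6.39 in the other exposed arrays and 5.78 to 6.72 in controls.

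Nr4a2, the transcription factor of the set, had the widest spread of the 8 genes and a within-group SD of 0.87, above that of more than 99.9% of tested probes. It was 7.11, 7.31, 8.11, 7.90, 6.35 and 6.98 in poly(I:C) replicates 1 to 6. In controls 1 to 6 it was 7.66, 5.40, 7.45, 6.07, 6.75 and 5.14. Of the exposed arrays 5 lay above the control median of 6.41, and 2 lay above every control. The means were 7.29 ± 0.64 in poly(I:C) and 6.41 ± 1.05 in control offspring, a difference of 0.88 (log2, 95% interval -0.03 to 1.79, limma adjusted p = 0.366).

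The low Nr4a2 controls were again replicates 2, 4 and 6. Slc17a7 followed a similar order, with 8.98, 9.16, 9.35, 9.50, 7.68 and 8.27 in poly(I:C) replicates 1 to 6 and 9.41, 6.59, 8.59, 6.87, 7.21 and 5.23 in controls 1 to 6. In both genes controls 1 and 3 were the highest of their group and control 6 the lowest, and poly(I:C) 3 and 4 were the highest and poly(I:C) 5 the lowest of theirs. Over 8 cortical genes, 7 were higher in value, 0 passed the test and 5 had an unadjusted limma p under 0.05. Over all probes, 49.1% were lower in value and 14.4% had such a p. The array means of the 8 cortical genes were 5.83 to 6.65 in poly(I:C) and 5.32 to 6.48 in control offspring. Tbr1, a transcription factor of deep cortical neurons, had a difference of 0.91 on the log2 scale (limma adjusted p = 0.317). Rorb, the cortical gene with the lowest unadjusted p, differed by 0.26 (limma adjusted p = 0.167) but did not follow this order. Its highest control was control 6, at 6.83, with control 2 at 6.73 and control 1 at 6.57. In the fit with the 3 tissue covariates the Nr4a2 difference was -0.13 (limma adjusted p = 0.868). The covariates themselves differed between the groups. Cortical means were 6.25 in poly(I:C) and 5.76 in control offspring, and choroid plexus means 4.73 and 5.56. That fit therefore cannot separate exposure from tissue content. Without controls 2, 4 and 6 the Nr4a2 difference was 0.01 (limma adjusted p = 0.997). These controls were the lowest for Nr4a2 and were picked after seeing the data, so leaving them out had to shrink the difference. Over the 12 arrays, deviations of Nr4a2 from its group means correlated with those of the cortical mean (r = 0.88). Inverse correlations were found with the means of ependyma (-0.87) and mature oligodendrocytes (-0.80). They were also found with the septal, pallidal and diencephalic mean (-0.74) and the choroid plexus mean (-0.71). The part of any of these tissues in the Nr4a2 value was not tested.

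**Figure D4:**
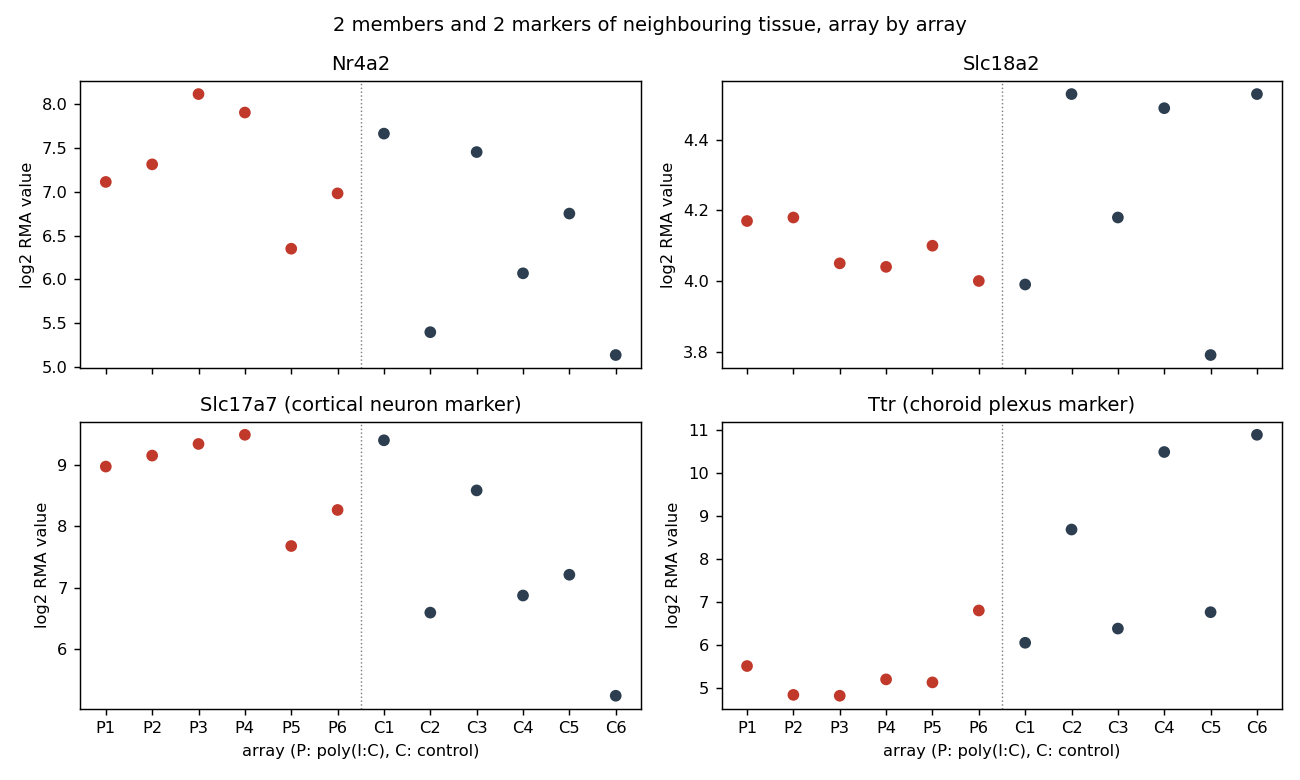
Log2 values per array of Nr4a2 and Slc18a2 (top) and of the cortical marker Slc17a7 and the choroid plexus marker Ttr (bottom), with poly(I:C) replicates P1 to P6 left of the dotted line and control replicates C1 to C6 right of it. The axes do not start at 0 and differ between panels. Controls 2, 4 and 6 are high for Ttr and Slc18a2 and low for Nr4a2 and Slc17a7.

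Related and activity-regulated factors had smaller differences in value than Nr4a2, and the differences between genes were not tested. Nr4a1, a related nuclear receptor with an immediate early response, differed by 0.02 and Nr4a3 by 0.14 (limma adjusted p = 0.980 and 0.743). Of 10 immediate early genes including these 2, 7 were higher in value, 0 passed the test, and the median difference was 0.10. An unadjusted limma p under 0.05 was found for 2 of the 10, against 14.4% of all probes. Npas4, a neuronal activity factor, stood at 6.31 ± 0.43 in poly(I:C) and 5.66 ± 0.40 in control offspring, a difference of 0.65 on the log2 scale (limma adjusted p = 0.185). Fos differed by 0.20 (adjusted p = 0.293) and Fosb by 0.18 (adjusted p = 0.504).

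Related genes of dopamine metabolism gave 0 calls in the limma fit. Over all probes, 49.1% were lower in value and 14.4% had an unadjusted limma p under 0.05. Tetrahydrobiopterin is the cofactor of tyrosine hydroxylase, and of 7 genes for its synthesis and recycling 2 were higher and 5 lower in value (median difference -0.05), with 1 at an unadjusted limma p under 0.05. Qdpr, which regenerates the cofactor, stood at 8.98 ± 0.09 in poly(I:C) and 9.16 ± 0.14 in control offspring, a difference of -0.18 on the log2 scale (limma adjusted p = 0.242). Pts, which makes a precursor of the cofactor, differed by -0.09 (adjusted p = 0.392), and Spr, which completes it, by 0.09 (adjusted p = 0.395). Gch1, the first enzyme of the pathway, was at 3.71 ± 0.04 in poly(I:C) and 3.76 ± 0.07 in control offspring.

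Of 10 further genes of monoamine and aldehyde metabolism, 7 were higher and 3 lower in value, with a median of 0.03. An unadjusted limma p under 0.05 was found for 2 of the 10, against 14.4% of all probes. Adh5, an alcohol dehydrogenase that also clears formaldehyde, stood at 6.63 ± 0.17 in poly(I:C) and 6.36 ± 0.07 in control offspring, a difference of 0.27 on the log2 scale (limma adjusted p = 0.131). Comtd1 differed by 0.13 (adjusted p = 0.256) and Aldh1a2, a retinaldehyde dehydrogenase, by 0.14 (adjusted p = 0.477). Aldh2, the mitochondrial enzyme that acts on the same aldehyde as Aldh1a1, differed by 0.02 (adjusted p = 0.942).

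Of 6 further carrier genes 2 were higher and 4 lower in value, with a median of -0.03. An unadjusted limma p under 0.05 was found for 0 of the 6, against 14.4% of all probes. Slc18a1, the vesicular transporter of endocrine cells, differed by -0.08 (limma adjusted p = 0.348), the serotonin transporter gene Slc6a4 by -0.05 (adjusted p = 0.631) and Slc29a4, a low-affinity monoamine transporter, by -0.14 (adjusted p = 0.632).

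Genes that mark dopamine neurons of the midbrain also gave 0 calls. Of 11 such genes other than the 8 above, 8 were higher and 3 lower in value, with a median difference of 0.02 and a range from -0.05 to 0.10. An unadjusted limma p under 0.05 was found for 0 of the 11, against 14.4% of all probes. Foxa2 differed by 0.07 (limma adjusted p = 0.452), Slc10a4, a vesicular protein of cholinergic and aminergic neurons, by 0.10 (adjusted p = 0.635) and Chrna6, a nicotinic receptor subunit gene, by 0.04 (adjusted p = 0.676). Chrna6 was at 2.97 ± 0.07 in poly(I:C) and 2.93 ± 0.04 in control offspring, and Pitx3, the midbrain dopamine neuron factor, at 5.23 ± 0.04 in poly(I:C) and 5.22 ± 0.12 in control offspring. Of these 11 genes 4 had a mean at or above the median probe level.

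**Figure D5:**
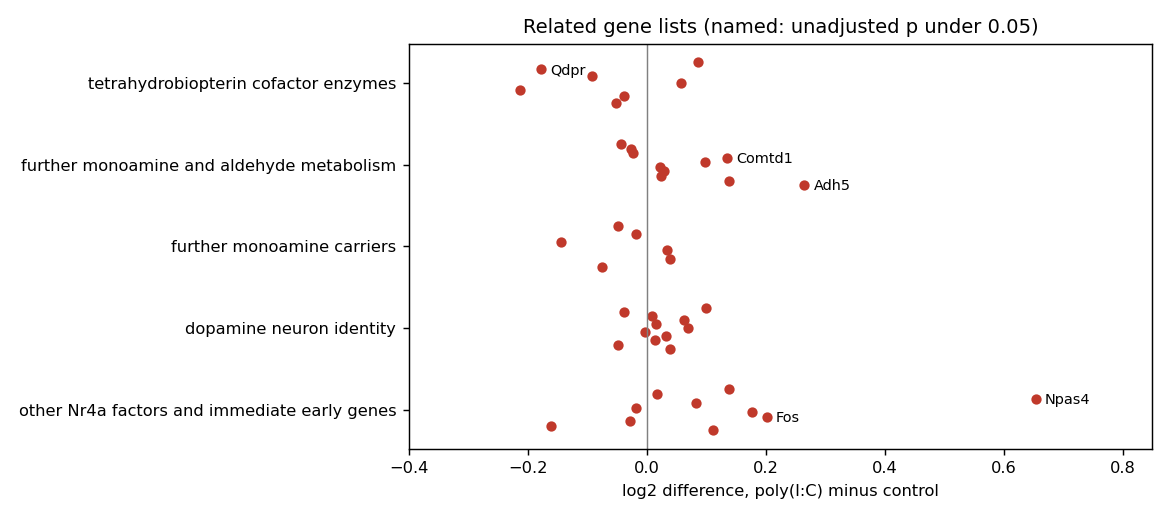
Log2 difference, poly(I:C) minus control, of each measured gene in 5 related lists, 1 point per gene, with names where the unadjusted limma p was under 0.05. None of these genes passed the adjusted threshold, and Npas4 at 0.65 lies farthest from 0.

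For each of the 8 genes, the genes with the most similar pattern were sought as the highest Pearson correlation of deviations from the group means over 12 arrays, among 10282 probes at or above the median level. The arrays differed in the tissue markers given above, and the highest of so many correlations is large by selection, so these are descriptions. Nr4a2 was most like Ccn2, a secreted matrix protein gene (r = 0.97), Trim9 (0.96) and Lingo1 (0.95). Maoa was most like Gpr137b (0.99), Rlim (0.97) and Nck1 (0.95), and Maob most like Mybl1 (0.94), Clu, which encodes clusterin (0.93), and Hspb6 (0.93). Slc18a2 was most like Prkab1 (0.90), Prdm16 (0.90) and Rpl7a (0.87). Th was most like Hs3st5 (0.95), Syt10 (0.94) and Dpy19l3 (0.93), with lower Spearman values of 0.74, 0.78 and 0.67. Ddc was most like Sat2 (0.90), Gstk1 (0.88) and Ifnar2 (0.87), Slc6a3 most like Tmem115 (0.88), Mbd2 (0.87) and Tpst2 (0.85), and Aldh1a1 most like Ttc1 (0.94), Nob1 (0.94) and Slc38a2 (0.92).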

How the data were processed

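Nucleus accumbens RNA was hybridised to Mouse Gene 1.1 ST array strips, per the labels' protocols. The authors deposited 1 table of 35556 rows with log2 values, made with RMA and Partek 6.6 per the submitters' processing notes. RMA corrects background, quantile-normalizes and summarises probe sets, so a shift common to most transcripts would not be visible. The genome build used for it is not given in the sources used here. For arrays their number limits the precision.

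Rows were named from the platform annotation. There were 21218 rows with 1 symbol, 1881 with several and 12457 with none listed, and only the first were tested. For a gene with several rows, the row with the highest mean was used. Of the tested rows 21185 were matched by gene identifier to RefSeq. Each was fitted with limma 3.58.1 in R 4.3.3 (lmFit, eBayes, exposure as the only term, two-sided) with Benjamini-Hochberg adjustment over all 21218 probes. Differences are poly(I:C) minus control. The labels call the samples biological replicates, and if litter mates were included, the p-values treat them as independent.

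The 8 genes, the related and marker lists and the tests were chosen with earlier results of these data known. The text names all 8 genes, up to 3 genes per list with the lowest unadjusted p, the defining markers of dopamine, medium spiny, cortical, serotonin and noradrenaline neurons and choroid plexus, and the 3 genes most like each of the 8. The genes outside this rule, namely Gch1, Aldh2, Pitx3, Nr4a1, Nr4a3, Tbr1, Kl and Aqp1, were added after their values were seen. Alternatives covered the variance model, array weights, normalization, filters, row choice, covariates, a replicate block and arrays left out. Leaving out controls 2, 4 and 6 together was chosen after seeing the data.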

Additional observations from a re-analysis of the deposited data

Results flagged for a closer look

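Th in the poly(I:C) group held 1 array far from the others. Poly(I:C) 6 stood at 6.20 and the next highest at 5.45, a gap that was 0.751 of the range of the 6 arrays, above Dixon's critical value at the 95% level. There were 16 groups of 6 values examined in this way, and chance alone marks about 1 in 20. On that array the medium spiny neuron mean was 9.47, the highest of the 12, and the microglial mean was 6.50, the highest of the exposed arrays. Ttr was 6.80 there, also the highest of the exposed arrays. Other choroid plexus genes differed there. Kl and Folr1 were also the highest of the exposed arrays, while Otx2 and Aqp1 were the lowest. The choroid plexus mean was 4.86, against 4.61 to 4.84 in the other exposed arrays. The part of these markers in the Th value was not tested.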

How the results depend on the processing

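Over 24 other settings, 12 of them leaving out 1 array, 0 of the 8 genes passed the adjusted threshold. Th, Maob and Aldh1a1 stayed lower in value in all settings where they were fitted. The number of the 8 genes at an unadjusted limma p under 0.05, 1 in the fit as reported, was 2 with an intensity trend, 3 with array weights, 2 with the tissue covariates, 2 with the replicate block, and 0 without controls 4 and 6 or without controls 2, 4 and 6. It ran from 0 to 2 with 1 array left out, with 0 without control 2 or control 6 and 2 where control 1, control 3, control 5 or poly(I:C) 5 was left out. Of all 21218 probes, 3056 had an unadjusted limma p under 0.05 in the fit as reported. That count was 2995 with an intensity trend, 3579 with array weights, 2218 with the tissue covariates and 2801 with the replicate block.

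The number of all probes past the adjusted threshold, 13, was 140 with array weights, 38 after a further quantile normalization, 20 among probes at or above the median level, and 0 with all rows tested, with the replicate block, with the tissue covariates, without controls 4 and 6, and without controls 2, 4 and 6. It ran from 0 to 84 with 1 array left out, with 84 without control 3, 54 without control 1, 39 without poly(I:C) 6, 28 without poly(I:C) 1, 6 without control 2, and 0 where control 4, 5 or 6 or an array of poly(I:C) 2 to 5 was left out. At an unadjusted p under 0.05 there were 3056 probes, 1886 with the filter on level, 4658 with all rows, 1768 without controls 4 and 6, and 1483 without controls 2, 4 and 6. With 1 array left out this ran from 2344 to 3634. Of the listed genes other than the 8, 1 passed (Mobp), against 5 with array weights, 0 with all rows, the replicate block, the tissue covariates, or without controls 4 and 6 or 2, 4 and 6, and 0 to 4 with 1 array left out. The causes were not tested.

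Differences that changed sign were Maoa at -0.02 with array weights, Slc6a3 at 0.0184, Slc18a2 at 0.00207 and Nr4a2 at -0.13 with the tissue covariates, Slc6a3 at 0.0147 without controls 4 and 6, and Slc6a3 at 0.00863 and Slc18a2 at 0.11 without controls 2, 4 and 6. With 1 array left out Ddc ran from -0.0612 to 0.0644, Slc6a3 from -0.0391 to 0.00938 and Maoa from -0.0182 to 0.0514. The level of Ddc against the array median was -0.23 with the median over probes with 1 symbol.

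The replicate numbers did not pair the arrays: deviations from the group means correlated above 0.1 in 1 of 6 same-numbered pairs (from -0.20 to 0.27), and 1 of 6 exposed arrays correlated best with its own number. Of 24 genes named as most alike, 8 were among the 3 highest by Spearman correlation. Slc6a3 and Slc18a2 lay at low signal, which limits what the arrays could show.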

Other observations

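Markers of other monoamine neurons and of the brain's coverings were read on the same arrays. Over all probes, 49.1% were lower in value and 14.4% had an unadjusted limma p under 0.05. Of 5 measured genes of serotonin, noradrenaline and histamine neurons, 3 of which are also in the carrier or metabolism lists, 0 had a mean at or above the median probe level and 0 passed the limma test (0 also at an unadjusted p under 0.05). Tph2, the serotonin-synthesising hydroxylase, stood at 3.65 ± 0.05 in poly(I:C) and 3.64 ± 0.06 in control offspring, and Dbh, which makes noradrenaline from dopamine, at 3.52 ± 0.06 in poly(I:C) and 3.55 ± 0.15 in control offspring (SD, n = 6 arrays each). Of 8 genes of meninges and vascular fibroblasts 4 were higher and 4 lower in value, 0 passed and 1 had an unadjusted p under 0.05, Col1a2, a collagen gene with a difference of 0.13 on the log2 scale (limma adjusted p = 0.313).

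The lists of choroid plexus, ependyma, microglia, vessels, septum and medium spiny neurons gave 0 calls in the limma fit. The shares to set beside their counts are 49.1% of all probes lower in value and 14.4% at an unadjusted limma p under 0.05. In poly(I:C) offspring the values of all 8 choroid plexus genes were lower, led by Ttr with a log2 difference of -2.82 (limma adjusted p = 0.151), and 2 had an unadjusted p under 0.05. Of 7 ependymal genes all were lower in value and 4 had an unadjusted p under 0.05, among them Tmem212 at -0.32 (adjusted p = 0.230). Of 7 microglial genes 6 were lower in value, with Tyrobp at -0.19 (adjusted p = 0.132), and 2 had an unadjusted p under 0.05. Of 8 endothelial and pericyte genes 5 were lower in value and 0 had an unadjusted p under 0.05, with Vtn at -0.11 (adjusted p = 0.446). Of 10 septal, pallidal and diencephalic genes 6 were lower in value and 3 had an unadjusted p under 0.05, among them Tcf7l2 at -0.42 (adjusted p = 0.218). Of 10 medium spiny neuron genes 6 were higher in value and 1 had an unadjusted p under 0.05, Pdyn (prodynorphin) at 0.32 (adjusted p = 0.237).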
